A study of Caenorhabditis elegans with 16 samples.

Results

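The insulin-like peptide genes of Caenorhabditis elegans were followed through heat shock in wild-type worms and in worms without functional ADARs, the proteins behind the editing of adenosine to inosine in double-stranded RNA. The table of normalized counts was searched by gene name for daf-28 and for every gene named ins followed by a number. This gave 38 genes with 1 transcript each, among 26080 transcripts (features) in all. RNA came from whole worms, in 16 libraries, and treatment began at the L4 larval stage. The ADAR mutants had 5 libraries after heat shock and 5 under standard conditions, from 2 strains with different alleles: BB4, adr-1(gv6) with adr-2(gv42), gave 3 of each, and BB21, adr-1(tm668) with adr-2(ok735), gave 2 of each. Wild-type N2 gave 3 libraries after heat shock and 3 under standard conditions. Heat shock lasted 75 min at 34 °C, followed by 20 min at ambient temperature and a recovery of 3 h at 20 °C. Standard worms stayed at 20 °C throughout. The paper holds it possible that some worms developed further during these incubations and made embryos.

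Insulin-like peptides are small secreted proteins, made mainly by neurons and the intestine, that bind the single insulin and IGF receptor of the worm, DAF-2. Agonists activate DAF-2, which works through the phosphoinositide 3-kinase AGE-1 and the AKT kinases to keep the FOXO transcription factor DAF-16 out of the nucleus, and antagonists oppose this. The pathway is known for its part in dauer formation, lifespan, fat storage and resistance to heat and other stresses. The peptides share a fold and are encoded by many genes, several of which lie side by side.

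The depth of the 16 libraries ran from 4699505 to 35693369 reads. A set of 6 libraries, namely replicate 3 of N2 and of BB4 and replicate 2 of BB21 in both conditions, was deep (at least 30011732 reads), and the other 10 were shallow (at most 9624995 reads). Each heat-shocked library has a standard library of the same strain and replicate number, and in all 8 such pairs both libraries were deep or both shallow. The normalized count of adr-2 was between 140 and 593 in the 10 mutant libraries and between 732 and 1442 in the 6 N2 libraries, so its transcript was lower but not absent in both mutant strains. Normalized counts are reads divided by a size factor for each library, and limma was run on log2(normalized count + 1) for the 24401 features whose mean reached 1, among them all 38 insulin-like peptide genes. A feature was called at a Benjamini-Hochberg adjusted p under 0.05, and all tests were two-sided. Log2 fold changes on this scale understate the changes of genes with few counts. The labels call the libraries biological replicates without naming their cultures, and p-values measure the spread between these libraries. In RNA from whole worms, fewer cells of a type and less RNA per cell cannot be told apart.

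Under standard conditions 1 gene, ins-13, exceeded all others by far. Its normalized count was 3244, 2469.7 and 1469.9 in BB4, 1738 and 1513 in BB21, and 2908, 3129 and 1659 in N2. It held 63.0% of the counts of all 38 genes in the 8 standard libraries. The mean over all 16 libraries was 1565 for ins-13 and 202 for ins-37, which came second, and the median of the 38 means was 29.7, against 164 for all tested features. Of the 38 genes, 20 had a mean of 20 or more, 18 had a lower mean and 7 of these were under 5. Reads in every library were found for 25 genes, and between 32 and 38 genes were detected in any 1 library.

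**Figure D1:**
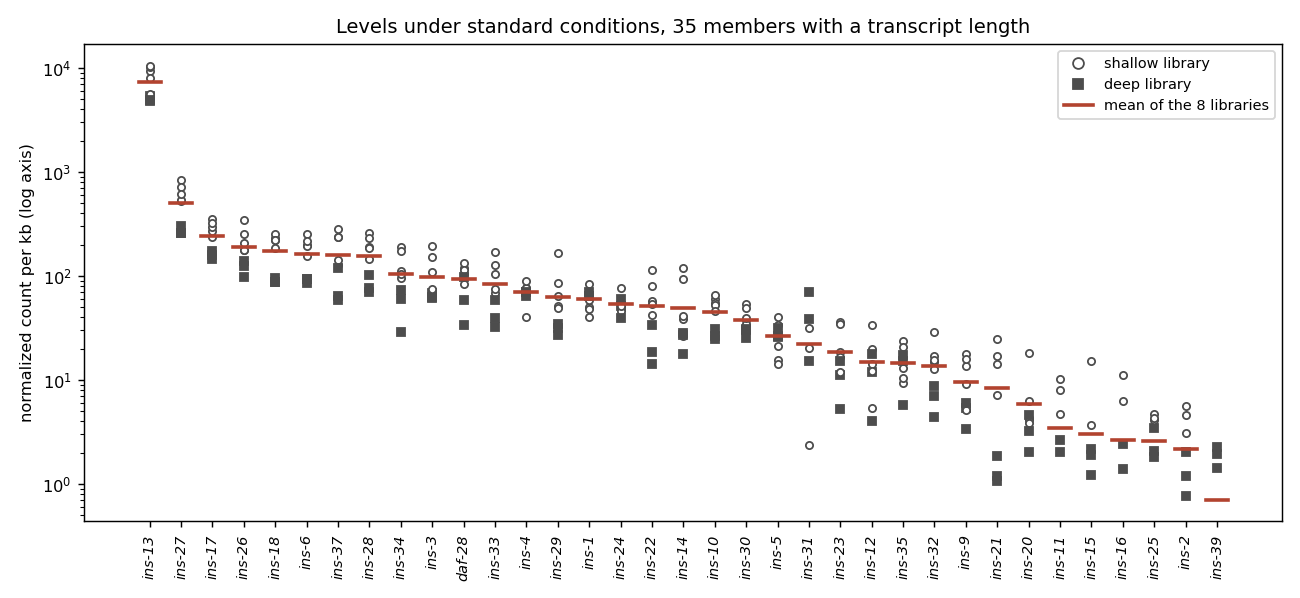
Normalized count per kb of transcript (log axis) of the 35 insulin-like peptide genes with a matched transcript length in the 8 libraries under standard conditions. Circles are shallow libraries, squares are deep libraries and red lines are means over all 8, zeros included in the mean but not drawn. The level of ins-13 stood at 7358 per kb, and that of ins-27, the next gene, at 506 per kb.

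Levels of different genes can be compared only per length, and transcript lengths of 284 to 955 bases were matched for 35 of the 38 genes in the annotation WBcel235. Per kb, ins-13 had a level of 7358 ± 2456 normalized counts (SD, n = 8 standard libraries), followed by ins-27 with 506 ± 216 and ins-17 with 245 ± 78.9. Next in order came ins-26 with 190.3 ± 79.5 per kb, ins-18 with 173 ± 71.7 and ins-6 with 161 ± 64.3. These last 3 levels lay within 1 SD of each other. The gap between ins-13 and ins-27 was wider than both ranges, which were 4772 to 10532 for ins-13 and 260.2 to 831 for ins-27. The agonist daf-28, which sensory neurons make to prevent dauer entry, stood at 93.4 ± 33.4 per kb, and ins-4, a further agonist of these neurons, at 69.3 ± 13.9. The antagonist ins-1 was close to them at 59.9 ± 13.8 per kb. At the low end, ins-20 had 5.82 ± 5.17 per kb, ins-11 had 3.45 ± 3.92 and ins-39 had 0.702 ± 0.994, the lowest level of the 35. Between ins-11 and ins-39 lay ins-15 with 3.01 ± 5.05, ins-16 with 2.64 ± 4.02, ins-25 with 2.56 ± 1.88 and ins-2 with 2.17 ± 2.12.

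The deep and shallow libraries gave different levels for most of the genes. Under standard conditions 15 of the 20 genes with a mean of 20 or more were lower in all 3 deep libraries than in any of the 5 shallow ones, which was the case for 30.7% of all features at this level. The median ratio of deep to shallow means was 0.467 for the 20 genes and 1.04 for all features. After heat shock 13 of the 20 genes were lower in all 3 deep libraries than in any shallow one, against 29.6% of all features at this level. The median ratios were then 0.327 and 0.981. The ratio moved with transcript length over all features: its median was 0.490 for 5289 transcripts under 1000 bases, 1.03 for those of 1000 to 2000 bases, 2.18 for those of 2000 to 4000 bases and 3.93 for 836 longer ones. For the 19 insulin-like peptide genes with a length, all under 1000 bases, the median was 0.488. Of all features under 1000 bases, 64.3% were lower in all 3 deep libraries than in any shallow one under standard conditions. The exceptions were ins-1, ins-4, ins-20, ins-24 and daf-28, whose deep and shallow libraries overlapped, with a ratio of 1.17 for ins-1 and 0.964 for ins-4. Summed over the 37 genes other than ins-13, the count was 806 to 1127 in deep libraries and 1507 to 2929.7 in shallow ones. Since every pair of heat-shocked and standard libraries is of 1 depth class, results below are also given with the pair as a block in the fit, called the blocked fit.

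**Figure D2:**
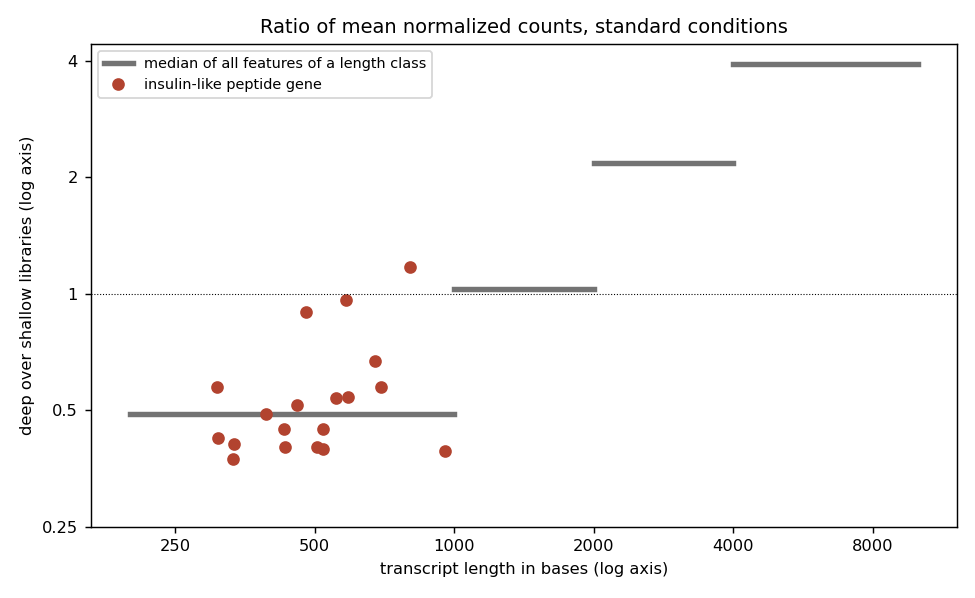
Ratio of the mean normalized count in 3 deep libraries to that in 5 shallow libraries under standard conditions (log axis) against transcript length in bases (log axis). Red points are the 19 insulin-like peptide genes with a mean of at least 20 and a matched length, and grey bars are medians of all features in 4 length classes, of which the last is open to the right. The genes lie around the bar of the shortest class, at 0.490.

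After heat shock a few genes that were almost silent under standard conditions were higher, and ins-13, the most abundant, was lower. In the mean of the ADAR mutant and N2 responses, 6 of the 38 genes were called, against 18.2% of all features: ins-20, ins-39, ins-11 and ins-25 rose (11.5% of all features did), and ins-13 and ins-34 fell (6.75%). In the ADAR mutants alone 4 genes were called, ins-20 and ins-39 as higher and ins-34 and ins-13 as lower, against 7.4% of all features (5.01% higher and 2.39% lower). In N2 alone limma called 0 of 38 genes, with 6 at an unadjusted p under 0.05. Over all features limma called 2.9%, with 19.8% at an unadjusted p under 0.05. In the same comparison edgeR called 0 of the 38 genes and 396 of 24401 features. DESeq2 called 4 of 36 genes tested (ins-11, ins-13, ins-20 and ins-39) and 2092 of 23034 features. With the pairs as a block, 9 genes were called in the ADAR mutants (23% of all features), 7 in N2 (19.5%) and 14 in the mean of both (41.2%). The 6 genes of the mean response were all among these 14. The shares of members called were thus close to those over all features. The median log2 fold change of the 38 genes was 0.35 in the ADAR mutants, with 0.07 over all features, and 0.36 in N2, with 0.04 over all features, and 24 of 38 were above 0 in each. With quantile normalization these medians were −0.08 in the mutants and −0.06 in N2, with −0.07 and −0.06 over all features, and 17 and 19 of the 38 genes were above 0. The thresholds of the methods add a log2 fold change over 2 in size. With limma 3 genes passed them in the ADAR mutants (3.68% of all features) and 0 in N2 (1.95%). With DESeq2, which the methods used, 4 genes passed in the mutants and 3 in N2. Over all features DESeq2 gave 1469 of 25561 tested in the mutants and 1016 of 23034 in N2.

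The number of calls in the ADAR mutants changed with single libraries, over all features as well as among the 38 genes. Without any 1 of 5 libraries (BB4 standard replicates 1 and 2, BB21 standard replicate 1, BB21 heat shock replicates 1 and 2) ins-20 alone was called, while calls over all features numbered 949 to 1314, against 1805 with all libraries. Without BB4 heat shock replicate 3 ins-20 and ins-34 were called (1123 over all features), and without N2 heat shock replicate 1 there were 6 calls (2268 over all features). With BB4 or BB21 as the only mutant strain, 0 of the 38 genes and 0 of all 24401 features were called in the mutants. When the 6 libraries with the title ending found in all 3 strains were left out, 0 of the 38 genes were called in the mutants, in N2 and in the mean of both, and over all features there were 0, 0 and 103 calls. In the blocked fit the N2 count was 7 with N2 pair 1 and 1 (ins-20) without it, and that over all features was 4752 with it and 1028 without it.

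In the limma fit of all 16 libraries ins-20 had the largest log2 fold change of the 38 genes in both genotypes. With DESeq2 the largest in N2 was that of ins-11, at 6.47. After heat shock the normalized count of ins-20 was 323, 143 and 15.7 in BB4 and 56.9 and 5.87 in BB21, against 7.84, 1.64 and 1.97 in BB4 and 2.68 and 1.37 in BB21 under standard conditions. In N2 it was 34.9, 68.0 and 24.01 after heat shock, against 1.83, 1.78 and 0.877. The heat-shocked library was higher in all 8 pairs, by 4.27 to 87.0 times, and the groups were apart in N2 (11% of all features did the same in this direction) but overlapped by 1 library in the mutants. In the ADAR mutants the log2 fold change was 3.79 (standard error 0.84, adjusted p = 0.0152, limma), and in N2 it was 4.01 (standard error 1.08, adjusted p = 0.0598, limma), and the blocked fit called it in both, with adjusted p-values of 0.00182 and 0.01 from limma. Counted as reads, ins-20 had 379 reads after heat shock against 17 in the mutants, and 122 against 4 in N2, which after scaling for depth is a ratio of 25.02 (95% interval of the counts 15.4 to 43.4) in mutants and 29.5 (11.2 to 109.9) in N2. Such intervals cover counting error only. Within the shallow libraries the log2 fold change in the mutants was 4.98, and within the deep ones it was 2.01.

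The gene ins-11 encodes a peptide of the intestine known from responses to pathogenic bacteria. Its count was 22.1, 34.1 and 4.66 in BB4 and 27.1 and 3.35 in BB21 after heat shock, against 3.14, 0 and 0.789 in BB4 and 4.03 and 1.03 in BB21 under standard conditions. In N2 it was 101, 6.41 and 9.11 after heat shock, against 1.83 in 1 standard library and 0 in the other 2. All 8 pairs were higher after heat shock and the N2 groups did not overlap, with 1 heat-shocked N2 library, replicate 1, far above the other 2. The ADAR mutants gave a log2 fold change of 2.57 (adjusted p = 0.0659, standard error 0.80, limma), N2 gave 3.80 (standard error 1.03, adjusted p = 0.06, limma) and the mean of both 3.19 (standard error 0.65, adjusted p = 0.00433, limma). The blocked fit called ins-11 in the mutants and in N2 as well, at adjusted p = 0.00988 and 0.0115 from limma. Unblocked DESeq2 also called it in both genotypes. The read counts behind N2 were 59 after heat shock against 1, a depth-scaled ratio of 57.0 with a counting interval of 9.84 to 2289.

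No library under standard conditions had more than 1.37 normalized counts of ins-39. After heat shock BB4 had 0, 36.2 and 19.1 and BB21 had 17.6 and 18.5, against 0, 0 and 1.18 in BB4 and 0 and 1.37 in BB21 under standard conditions. N2 had 25.4, 3.85 and 20.3 after heat shock, against 0, 0 and 0.877. Thus 7 of 8 pairs were higher, the N2 groups did not overlap, and BB4 replicate 1 was at 0 in both conditions, which allows up to 4.43 normalized counts (3 reads) after heat shock. For ins-39 the log2 fold change was 3.13 (standard error 0.82, adjusted p = 0.0315, limma) in the ADAR mutants and 3.50 (standard error 1.06, adjusted p = 0.0826, limma) in N2, with 0.0223 for N2 in the blocked fit. The depth-scaled ratio of its reads was 19.1 in the mutants (counting interval 8.98 to 48.5) and, from 60 reads against 2, 28.99 in N2 (7.68 to 245). A smaller rise was seen for ins-25, called only in the mean of both responses (log2 fold change 1.29, adjusted p = 0.037, limma). This call was lost under 17 of 32 alternatives, and of the 16 fits with 1 library left out 6 kept it, with adjusted p-values of 0.0117 to 0.115 (limma). It rests on few reads, 22 after heat shock against 6 in the mutants and 13 against 4 in N2.

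**Figure D3:**
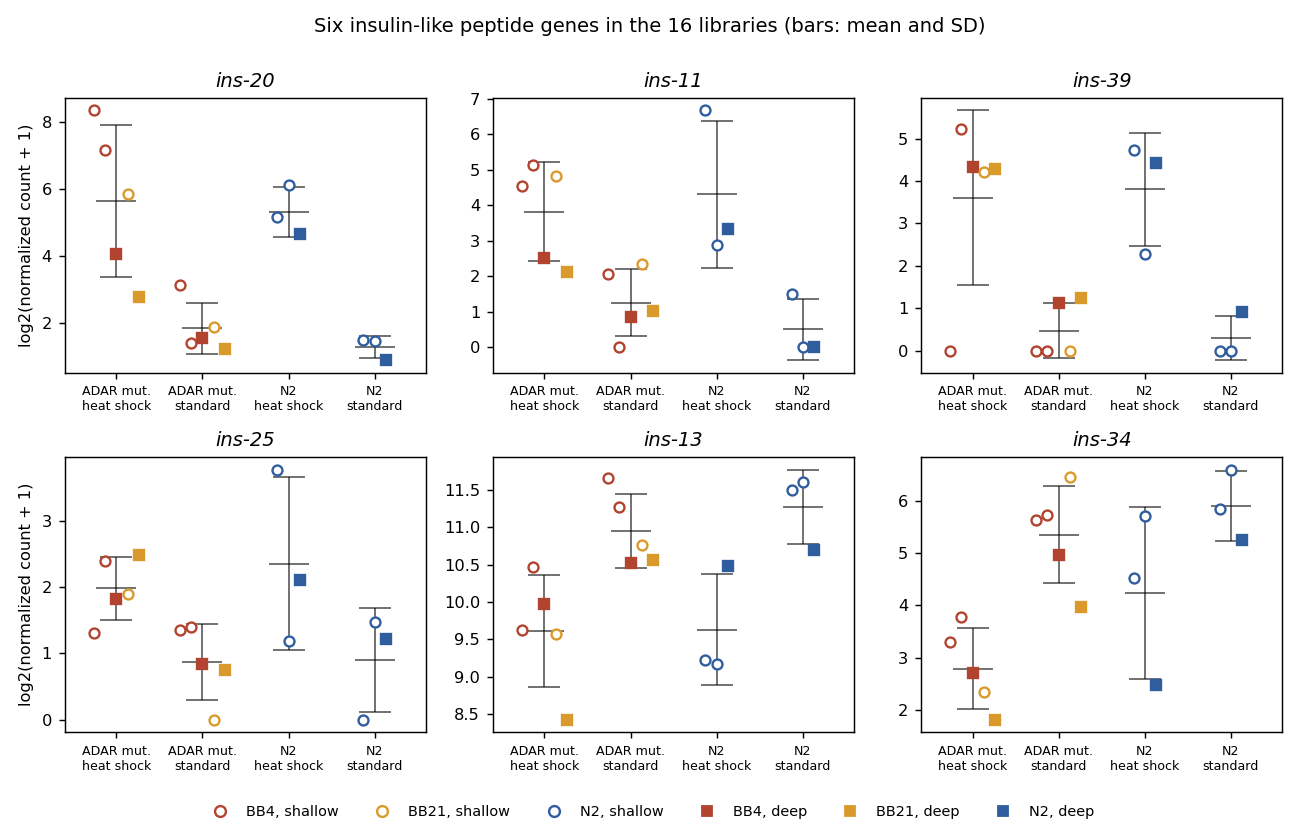
Log2 of the normalized count plus 1 in each of the 16 libraries for the 6 genes called in the mean response, by group (ADAR mutants after heat shock and under standard conditions, then N2 after heat shock and under standard conditions). Circles are shallow and squares deep libraries, colours mark the strain, and bars give the mean and SD of each group. For ins-20, ins-11 and ins-39 the heat-shocked libraries lie mostly above the standard ones, and for ins-13 and ins-34 below them.

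The most abundant of the genes, ins-13, fell. Its count was 787, 1413 and 1002 in BB4 and 763 and 343 in BB21 after heat shock, against 3244, 2469.7 and 1469.9 in BB4 and 1738 and 1513 in BB21 under standard conditions. In N2 it was 599, 576 and 1433 after heat shock, against 2908, 3129 and 1659. The groups did not overlap in the mutants (4.20% of all features did the same in this direction) or in N2 (7.62%), and all 8 pairs fell. For ins-13 the log2 fold change was −1.35 (standard error 0.38, adjusted p = 0.0442, limma) in the ADAR mutants and −1.64 (standard error 0.49, adjusted p = 0.0805, limma) in N2, where the blocked fit gave 0.0241. The deep pair of N2 fell least, to 0.864 of the standard level, against 0.206 and 0.184 for the shallow pairs. In the deep libraries alone the log2 fold change in N2 was −0.21, from 1 library against 1, and in the shallow ones −2.36.

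The second gene to fall was ins-34, with counts of 8.85, 12.8 and 5.51 in BB4 and 4.06 and 2.52 in BB21 after heat shock, against 48.6, 52.5 and 30.4 in BB4 and 87.2 and 14.8 in BB21 under standard conditions. In N2 it had 22.2, 51.3 and 4.55 after heat shock, against 56.6, 96.0 and 37.3. All 8 pairs were lower, at 0.0466 to 0.535 of the standard library, and the mutant groups did not overlap. Its log2 fold change was −2.57 (standard error 0.62, adjusted p = 0.0217, limma) in the ADAR mutants and −1.66 (standard error 0.80, adjusted p = 0.267, limma) in N2, where the blocked fit put it at the threshold (adjusted p = 0.05). Over all features 11.9% rose and 12.4% fell in all 8 pairs, while of the 38 genes 6 rose (ins-11, ins-16, ins-17, ins-20, ins-27 and ins-29) and 2 fell (ins-13 and ins-34).

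**Figure D4:**
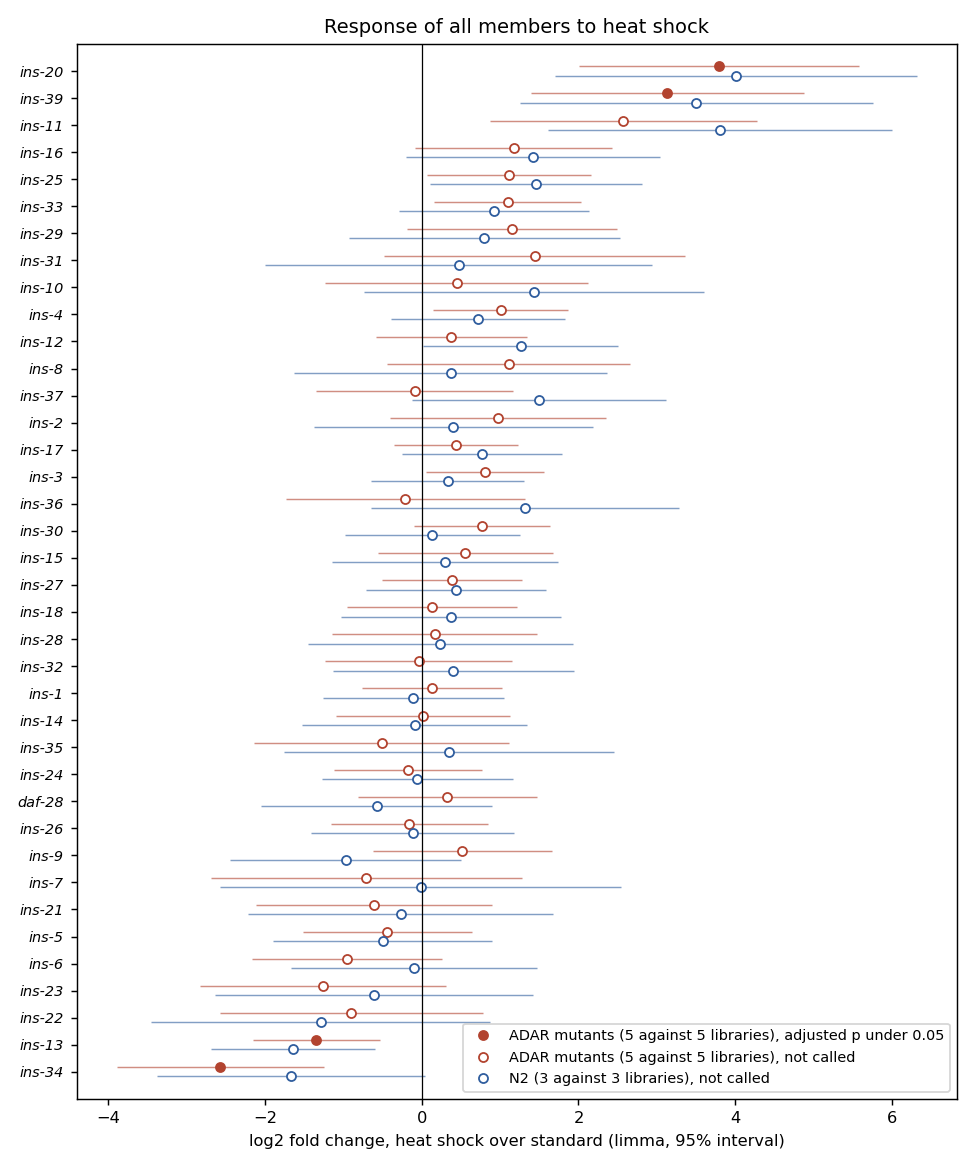
Log2 fold change of heat shock over standard conditions for all 38 genes, with 95% intervals from limma, in the ADAR mutants (red) and in N2 (blue). Filled points have an adjusted p under 0.05, and genes are sorted by the mean of both responses. The mutant values run from −2.57 for ins-34 to 3.79 for ins-20, and the N2 values from −1.66 to 4.01 for the same genes.

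The agonists of sensory neurons did not move as 1 group. The gene ins-4 had counts of 84.1, 95.9 and 101 in BB4 and 79.9 and 76.7 in BB21 after heat shock, against 40.8, 44.3 and 41.0 in BB4 and 52.3 and 37.1 in BB21 under standard conditions. In N2 it had 19.02, 98.8 and 103 after heat shock, against 23.7, 44.4 and 40.8. The mutant groups did not overlap (6.48% of all features did the same in this direction), and in N2 the library with 19.02 was lower than each standard library. Its log2 fold change in the mutants was 1.01 (standard error 0.40, adjusted p = 0.163, limma), and the blocked fit called it (adjusted p = 0.0285, limma). Without a block DESeq2 called ins-4 in the mutants, and both DESeq2 and edgeR called it in the mean of both responses. In the mutants ins-6 ran the other way, with 70.8, 49.0 and 14.8 in BB4 and 56.9 and 22.6 in BB21 after heat shock, against 102, 80.4 and 48.1 in BB4 and 113 and 44.7 in BB21. All 5 mutant pairs were lower for ins-6, which did not pass unblocked (adjusted p = 0.394, limma) but did in the blocked fit (adjusted p = 0.0337). For daf-28 the counts were 30.5 to 171 in the mutants after heat shock, against 23.7 to 93.5, and 15.9 to 82.1 in N2, against 40.8 to 83.5, with 5 of 8 pairs higher and no call in any fit named here.

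Among peptides with other roles, few passed. For ins-33, which with ins-3 promotes the proliferation of the larval germ line, the counts were 102, 124 and 104.3 in BB4 and 63.6 and 82.2 in BB21 after heat shock, against 65.8, 88.6 and 20.5 in BB4 and 38.9 and 30.6 in BB21. In N2 ins-33 had 50.7, 44.9 and 102 after heat shock, against 54.8, 35.5 and 16.7. In 7 of 8 pairs it was higher, the deep pairs of BB4 and N2 by 5.09 and 6.14 times. With limma ins-33 did not pass unblocked in the mean of both responses but did in the blocked fit (log2 fold change 1.01, adjusted p = 0.0638, and 0.0313 blocked). DESeq2 without a block also called ins-33 in that mean. The gene ins-3 had 79.7, 115, 59.4, 106 and 50.7 in the mutants after heat shock, against 40.8, 64, 40.6, 44.3 and 36.4, and passed in the mutants in the blocked fit (adjusted p = 0.0439, limma). The antagonists ins-1 and ins-18 were not called in either fit: 4 of 8 pairs were higher for ins-1 and 5 of 8 for ins-18. For ins-1 the mutants had 36.05 to 79.9 after heat shock, against 38.9 to 67.4, and N2 had 12.7, 61.6 and 65.8, against 40.2, 32.0 and 51.7. For ins-18 the mutants had 34.8 to 132 after heat shock, against 37.5 to 96.6, and N2 had 199.8, 108 and 42.6, against 100.4, 110.2 and 38.1. The groups of both genes overlapped in both genotypes. A further peptide described as an antagonist, ins-17, was higher in all 8 pairs by 1.21 to 2.26 times and passed in the blocked mean response (log2 fold change 0.61, adjusted p = 0.00672, limma, against 0.191 unblocked). Its counts were 108 to 303 in the mutants after heat shock, against 81.2 to 199, and 301, 242 and 123 in N2, against 133, 149 and 89.4, and its groups overlapped in both genotypes.

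For ins-7 and ins-37, 1 library lay far above the rest of its group. The intestinal agonist ins-7, which DAF-16 is known to repress, had 326 in BB4 replicate 1 after heat shock and 14.3 to 29.8 in the other 4 mutant libraries, against 27.6 to 141 in the mutants under standard conditions. In N2 it had 127, 301 and 12.01 after heat shock, against 139, 116 and 30.7. Its direction thus differed between libraries, with 2 of 8 pairs higher. For ins-37 the N2 counts were 783, 310.4 and 86.5 after heat shock, against 120.5, 135 and 56.5, while the mutants had 75.9 to 247, against 61.9 to 271. All 3 N2 pairs were higher and 2 of 5 mutant pairs, and ins-37 did not pass unblocked in N2 but did in the blocked fit (log2 fold change 1.497, adjusted p = 0.297, and 0.021 blocked, limma). Its difference between the responses, −1.59 (standard error 0.96), did not pass (adjusted p = 1, limma).

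**Figure D5:**
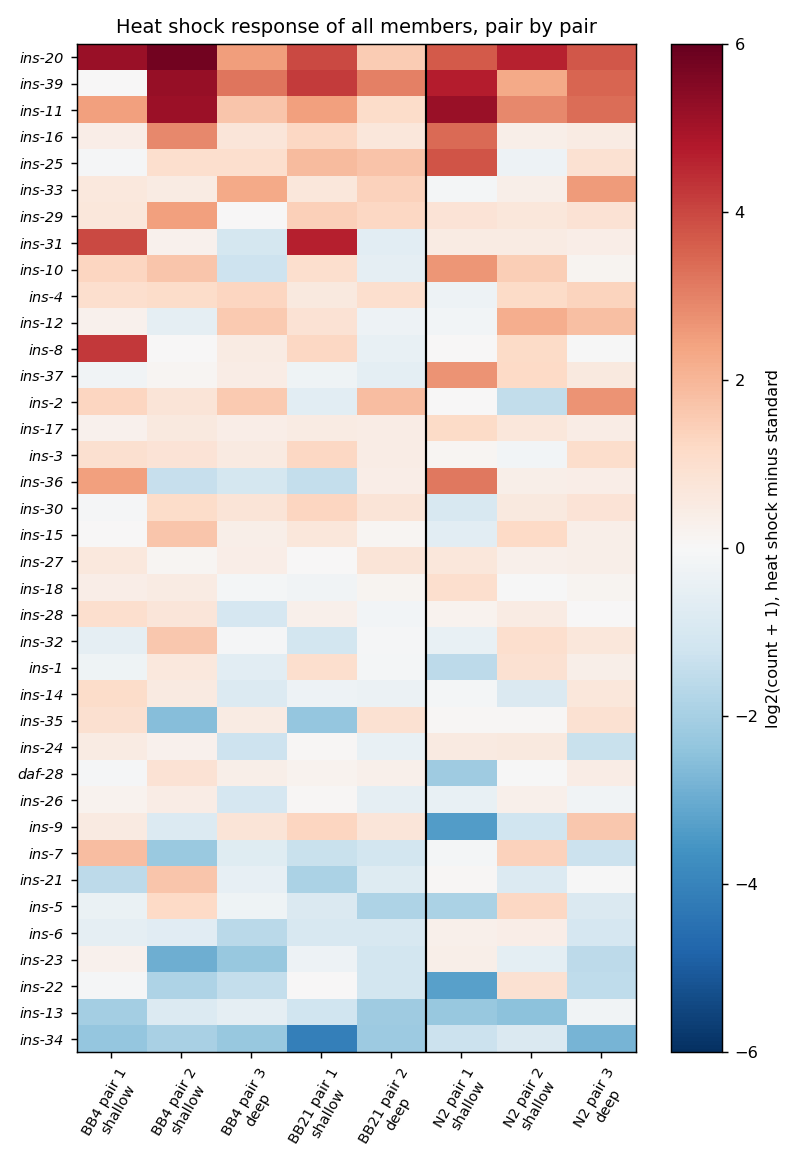
Difference of log2(normalized count + 1), heat shock minus standard, for each of the 38 genes in each of the 8 pairs of libraries, with the 5 mutant pairs left of the 3 N2 pairs and the depth class under each. Red is higher and blue is lower after heat shock. The rows of ins-20 and ins-11 are red and those of ins-13 and ins-34 blue in all 8 pairs.

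Many of the genes are neighbours in the genome, and neighbours did not share 1 response. In the gene order of WBcel235, 23 of the 38 genes lie in 6 runs with at most 5 other protein-coding genes between members, and 15 lie alone. In the run of ins-13, ins-12 and ins-11 the 2 outer genes went in opposite directions, with log2 fold changes in the mean response of −1.49 for ins-13 and 3.19 for ins-11, and ins-12 between them had 4.26 to 13.6 in the mutants after heat shock, against 3.94 to 6.56. The run of ins-2, ins-3, ins-4, ins-5, ins-6 and ins-20 spanned 3.90 for ins-20 to −0.53 for ins-6. The run of 7 genes (ins-28, ins-29, ins-25, ins-27, ins-24, ins-30 and ins-26) spanned 1.29 for ins-25 to −0.14 for ins-26, with 1 call in the mean response, ins-25, and 3 in the blocked fit. In that run ins-27 was higher in all 8 pairs by 1.00 to 1.70 times, with 122 to 261 in the mutants after heat shock, against 81.1 to 222, and 103.9 to 317 in N2, against 80.6 to 258. The gene ins-29 was higher in all 8 pairs by 1.00 to 5.72 times, with 11.4 to 93.8 in the mutants after heat shock, against 8.93 to 28.2, and 20.3 to 98.3 in N2, against 10.5 to 54.8. The 3 genes ins-21, ins-22 and ins-23 all had mean responses below 0, from −1.09 for ins-22 to −0.44 for ins-21, and none was called. The pairs ins-8 with ins-7 and ins-15 with ins-14 had no call.

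The remaining genes gave no call in either genotype in the fit of all 16 libraries, blocked or not. In the deep pairs ins-2, a gene with a mean of 2.38, was higher after heat shock, by 4.66 times in BB4, 7.32 in BB21 and 18.9 in N2. The N2 value comes from 1 pair, with 20 reads against 1. In the shallow N2 pairs ins-2 was at 0 in both conditions in replicate 1 and fell from 1.78 to 0 in replicate 2. Of all 8 pairs 5 were higher and 2 lower. Among those with a mean of at least 20, ins-26 was higher in 4 pairs of 8, ins-28 in 6, ins-24 in 5, ins-10 in 6 and ins-30 in 6. The widest spread was that of ins-10, with 3.82 to 59.7 in the mutants after heat shock, against 10.3 to 25.5, and 10.8 to 155 in N2, against 9.64 to 23.7. Both pairs of ins-10 that were lower were deep, and unblocked DESeq2 called ins-10 in the mean of both responses. For ins-26 the mutants had 30.6 to 113 after heat shock, against 44.7 to 95.3, and N2 had 48.4 to 145, against 57.0 to 159. For ins-28 the mutants had 16.5 to 107 after heat shock, against 23.4 to 64, and N2 had 25.7 to 112, against 25.4 to 85.8. The groups overlapped in each of these, as they did for ins-24 (11.4 to 37.9 in the mutants after heat shock, against 18.9 to 36.2, and 9.11 to 38.5 in N2, against 24.5 to 25.6) and ins-30 (25.1 to 83.9 in the mutants, against 20.3 to 36.1, and 12.7 to 34.6 in N2, against 17.1 to 25.6). Of the genes under 20, ins-5 had 5.45 to 23.4 in the mutants after heat shock, against 9.85 to 28.2, and ins-14 had 4.24 to 17.7, against 7.84 to 12.1. In no library did ins-9, ins-21, ins-2 or ins-15 pass 10 normalized counts, and ins-35, ins-23 and ins-32 stayed under 20. The genes under 20 had few reads: ins-16 was called in the blocked mean response (adjusted p = 0.0352, limma, against 0.0755 unblocked), and ins-8 was at 0 in 8 libraries and had 17.7 in BB4 replicate 1 after heat shock. The median 95% half-interval of a log2 fold change was 1.203 in the mutants and 1.55 in N2, before any adjustment for the number of features tested.

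In the comparison of genotypes no insulin-like peptide gene passed the test. For worms under standard conditions limma called 0 of 38 genes, with 1 at an unadjusted p under 0.05, and edgeR and DESeq2 called 0. Over all features limma called 0.0041%, with 3.88% at an unadjusted p under 0.05. After heat shock 0 of 38 were called by limma, with 1 at an unadjusted p under 0.05, and 0 by edgeR and DESeq2, and over all features 0% were called, with 4.64% at an unadjusted p under 0.05. No gene had groups that did not overlap, in either condition. For all features the shares were 2.85% higher and 1.96% lower in mutants under standard conditions, and 0.607% and 0.77% after heat shock. The gene with the lowest unadjusted p under standard conditions was ins-31, with counts of 0, 1.64 and 10.6 in BB4 and 0 and 26.8 in BB21, against 21.9, 14.2 and 49.1 in N2. After heat shock ins-31 had 14.8, 2.13 and 4.66 in BB4 and 24.4 and 16.8 in BB21, against 31.7, 20.5 and 65.0 in N2. The groups overlapped in both conditions, and the log2 fold change was −2.75 (standard error 1.04, adjusted p = 1, limma) under standard conditions and −1.78 (standard error 1.04, adjusted p = 0.906, limma) after heat shock. When each mutant library was set beside the N2 library of its condition and title ending, with the deep libraries as 1 set, all 10 mutant libraries were below N2 for ins-31 and for ins-6, and 3.27% of all features did the same. None was above N2 in all 10, against 1.97% of all features. After heat shock the lowest unadjusted p was that of ins-36, with 0 to 4.43 in the mutants, against 41.2, 2.57 and 2.07 in N2 (log2 fold change −1.88, standard error 0.82, adjusted p = 0.906, limma).

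The response to heat shock was also compared between the genotypes, and none of the 38 genes passed. The difference of the responses, ADAR mutant minus N2, ran from −1.59 for ins-37 to 1.49 for ins-9, 0 genes were called by limma (0 at an unadjusted p under 0.05, against 1.4% of all features, and 0 by edgeR and DESeq2), and all 38 intervals held 0. Over the 6 genes of the mean response the difference ran from −1.23 for ins-11 to 0.30 for ins-13, with standard errors of 0.62 to 1.37. These comparisons share their libraries with the ones above. The median 95% half-interval of the difference was 1.96 on the log2 scale, which leaves room for unequal responses.

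Downstream of the peptides the receptor daf-2 was not called in any comparison. Its transcript Y55D5A.5a had a log2 fold change of 0.45 in the ADAR mutants and 0.39 in N2, and like other long transcripts it was far higher in deep libraries (778 to 1363) than in shallow ones (18.1 to 57.1). Of the 7 kinase cascade genes (12 features), akt-1 was lower in the mean response. Its transcript C12D8.10a averaged 785 in the mutants after heat shock, against 1030.0, and 716 in N2, against 1178 (log2 fold change −0.57, adjusted p = 0.014, limma). In the blocked fit of the mean response 7 of the 12 features were lower, against 4724 of all 24401 features. Features of 1 gene are transcripts that can share reads. None of the 21 features of the transcription factors daf-16, skn-1, hsf-1, pqm-1 and hlh-30 was called unblocked, and daf-16 R13H8.1b had a log2 fold change of −0.16 in the mean response. The blocked fit of that response called 1 of the 21 features as higher and 1 as lower. Of the 12 genes for processing and release of peptides, such as the proprotein convertase egl-3 and the carboxypeptidase egl-21, none was called unblocked, and egl-21 had a log2 fold change of −0.05. Of their 30 features 1 was higher in the blocked fit of the mean response.

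Among the 20 genes known to be controlled by DAF-16 (23 features), 1 was higher and 2 were lower in the mean response. Over all features 11.5% were higher and 6.75% lower. The median log2 fold change was −0.25, with 0.06 over all features. The list does not separate genes that DAF-16 raises from genes that it lowers, so these counts and the median do not measure its activity. The small heat-shock protein gene hsp-12.6 averaged 165 in the mutants after heat shock, against 34.9, and 216 in N2, against 53.5 (log2 fold change 1.76, adjusted p = 0.0197, limma). The fatty acid desaturase gene fat-7 fell (525 in mutants, against 1197, and 417 in N2, against 1747, log2 fold change −1.64, adjusted p = 0.00373, limma), as did dod-24 (log2 fold change −1.33, adjusted p = 0.0237, limma). The blocked fit called 3 features of this list as higher and 8 as lower, against 5325 and 4724 of all 24401 features.

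Markers of stage and of cell types moved with heat shock too. The summed count of 5 adult and yolk genes (8 features) was 34078 to 58403 in the mutants after heat shock, against 68703 to 130970, and 42044 to 75292 in N2, against 78867 to 214170, and 6 of the 8 features were lower in the mean response, among them the yolk protein genes vit-2, vit-4, vit-5 and vit-6. The molt list (8 genes, 14 features) summed to 2110 to 16080 in the mutants after heat shock, against 911 to 3544, and 649.98 to 5332 in N2, against 716 to 2025, with mlt-8 higher. The germ line list (8 genes, 10 features) was 16136 to 21202 in the mutants after heat shock, against 19733 to 23903, and 16196 to 20856 in N2, against 23175 to 28965, with oma-1 and pgl-3 lower. A list of 8 genes was used for the sensory neurons ASI and ASJ, which make daf-28, ins-4 and ins-6. Whether these genes are limited to those neurons was not tested. Of the 8 genes 7 passed the filter and str-3 did not. Here trx-1 (B0228.5a) was higher in the mean response, with 23.2 in the mutants after heat shock, against 7.81, and 26.4 in N2, against 6.70. The sums of this list were 258 to 375 in the mutants after heat shock, against 188 to 267, and 242 to 362 in N2, against 120.5 to 248. In the mean response 1 of 16 hypodermis features (rol-6) was higher, with a list median of 0.04 and a range of −0.85 to 1.98, and 1 of 18 neuron features (unc-64) was higher, with a median of 0.13 and a range of −0.42 to 0.48. Of 10 intestine features none was called unblocked, with a median of −0.33, and the blocked fit called 1 as higher and 4 as lower. For the molt list, with a median of 1.60, the blocked fit called 9 of 14 features as higher and 2 as lower. It called 5 of 16 hypodermis, 2 of 18 neuron and 4 of 8 ASI and ASJ features as higher. As lower it called 7 of 10 germ line and 7 of 8 adult and yolk features. Over all 24401 features the mean response gave 2799 higher and 1646 lower calls, and 5325 and 4724 in the blocked fit. The part of stage or of these cells in the changes of the insulin-like peptide genes was not tested.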

How the data were processed

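Poly(A) RNA of whole worms was sequenced in single reads (50 nt), which the authors trimmed, collapsed and mapped with Bowtie to the transcripts of WS220. Reads with several alignments were kept. The deposited signal values are normalized counts, since the authors scaled every library by its DESeq2 size factor. The aligner's version is not given in the sources used here. All values (100%) were whole multiples of a step within a tolerance of 0.001, which gave the reads per library. None of the 38 genes had the same reads as another feature in all libraries, whereas 722 features did. Columns of the authors' own comparisons (fold changes and p-values) were not used.

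The members and all gene lists were chosen with earlier results of these data known. Genes with a mean of at least 20, or called in any comparison, were described by their values, and of the 13 lists daf-2, daf-16, called features and a few abundant ones were named. BB4 and BB21 formed the ADAR mutant group, as in the methods. Limma 3.58.1 (R 4.3.3) was fitted to 4 groups over all features, and the procedure was tested on simulated data. On the recovered reads the quasi-likelihood test of edgeR 4.0.16 with TMM called 1781 features for heat shock in the ADAR mutants and 396 in N2, against 1805 and 708 by limma, and DESeq2 1.42.0 called 3059 and 2092. Pairs were taken from strain and replicate number in the labels. The deviations of paired libraries from their group means correlated at 0.385 to 0.822 in all 8 pairs, and in 3 of them another library correlated more. The titles of 7 pairs share an ending, whose meaning is not stated. Other alternatives were pseudocounts, filters, scalings, a title ending term, 2-group fits, single mutant strains, depth classes, 1 feature per gene and each library left out. The files' build differs from WBcel235, so no coordinates are given, and that annotation served only for names, neighbours and lengths.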

Additional observations from a re-analysis of the deposited data

Results flagged for a closer look

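In 52 groups of 5 libraries, 4 held 1 library far from the other 4 by Dixon's criterion on the normalized counts. The groups were 26 genes in the ADAR mutants, after heat shock and under standard conditions. Chance alone meets the criterion in about 1 group of 20 if values are normally distributed, which was not tested here. Each flagged library was the highest of its group. The normalized count of ins-7 was 326.1 in BB4 replicate 1 after heat shock, with 14.3 to 29.8 in the other heat-shocked mutant libraries. That of ins-3 was 64 in BB4 replicate 2 under standard conditions, with 36.4 to 44.3 in the others. For ins-20 BB4 replicate 1 had 7.839 under standard conditions, with 1.37 to 2.68 in the others. For ins-16 the same library had 3.136, which is 2 reads, with 0 to 0.687 in the others.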

How the results depend on the processing

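Among 34 alternative settings, 36 fold changes of named genes gave 1205 values, of which 1047 kept their direction and their side of the threshold, 69 lost the call, 89 gained it and 0 reversed. Numbers of calls are given for the 38 genes, with those over all features in parentheses. In the ADAR mutants there were 4 (1805), and there were 2 (1163) with quantile normalization, 9 (5616) with the replicate block, 8 (5975) with the title ending as a term, 0 (0) with BB4 alone, 0 (0) with BB21 alone and 8 (4591) in the deep libraries alone. In N2 there were 0 (708), and there were 4 (2092) with DESeq2, 7 (4752) with the replicate block, 7 (5600) with the title ending as a term, 3 (703) in the shallow libraries alone, 5 (1998) in the deep ones alone and 2 (810) with 1 feature per gene. In the mean of both there were 6 (4445), and there were 14 (10049) with the replicate block, 15 (10215) with the title ending as a term, 3 (1506) with BB4 alone, 1 (111) with BB21 alone and 14 (7180) in the deep libraries alone. Within the deep libraries N2 has 1 library against 1, which is assumed to vary like the mutants. Leaving out 1 library at a time gave 1 to 6 calls in the ADAR mutants, 0 to 2 in N2 and 5 to 7 in the mean of both.

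Further settings were chosen after seeing the data. Without the 6 libraries whose title ending is found in all 3 strains there were 0 (0) calls in the ADAR mutants and 0 (103) in the mean of both. With the replicate block and N2 pair 1 left out there were 11 (7839) calls in the ADAR mutants and 1 (1028) in N2. The causes of these differences were not tested. The genotype comparisons and the difference of the responses had 0 calls in each setting in which they were fitted, and the 2-group fit was not run for the difference and the mean response. Over all features, quantile normalization gave 664 higher and 499 lower calls in the ADAR mutants, against 1223 and 582, and moved the median log2 fold change to −0.07, against 0.07. DESeq2 called 3059 features in the ADAR mutants and 2092 in N2, and edgeR called 396 in N2, against 1805 and 708 by limma.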
